A study of Mus musculus with 30 samples.

Results

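Immediate early genes are switched on within minutes of a stimulus such as a growth factor, without new protein synthesis, and their transcripts decay fast. In vascular smooth muscle their best known route runs from receptors such as the EGF receptor through the MAP kinases ERK1/2 to serum response factor (SRF) and CREB, which bind short promoter motifs. 10 of them were followed by name through the counts of aorta and kidney, out of 41128 genes in each table. FOS, FOSB, JUN, JUNB and ATF3 are bZIP transcription factors, of which FOS and JUN proteins pair as AP-1. EGR1, EGR2 and EGR3 are zinc finger transcription factors, IER2 is a small nuclear protein, and DUSP1 is the phosphatase that removes the activating phosphates of MAP kinases. All 10 had enough counts to be tested in the aorta and 8 in the kidney, where Fosb and Egr3 were too low.

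The mice were male and on the background labelled C57Bl6J. In the KO mice both copies of the Egfr gene carried loxP sites and a tamoxifen-inducible Cre under the smooth muscle promoter Smmhc (Myh11) removed the receptor in smooth muscle cells, whereas the WT controls carried the same Cre without loxP sites. All mice, WT and KO, received tamoxifen (1 mg per day for 5 days), and 7 days later, at 6 weeks of age, were assigned to a standard fat diet (SFD) or a high-fat diet (HFD) for 18 weeks. RNA of 14 aortae (3 WT-SFD, 4 WT-HFD, 3 KO-SFD and 4 KO-HFD) and 16 kidneys (4 per group) was sequenced, each library from 1 mouse. Because Cre acts in smooth muscle only, other cells of either organ keep the receptor. Aortae and kidneys were sequenced at different facilities, so tissue and facility cannot be told apart and each tissue was analysed alone.

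Libraries are named by group and a number, so that WT-SFD 3 is the third WT-SFD library of a tissue; the number is only a name and does not link the tissues. Levels are given as CPM, counts scaled to a common library size with edgeR's TMM factors. The aorta libraries held 6403699 to 13052870 counts and the kidney libraries 16354880 to 28331314. Protein-coding genes took 42.56% to 55.51% of the counts in WT aortae and 49.48% to 63.86% in KO aortae. In the kidneys they took 85.18% to 86.56%. Marker genes were compared with the tissue labels. The smooth muscle genes Acta2 and Myh11 averaged 6954 and 6349 CPM in the aorta, and the proximal tubule phosphate carrier Slc34a1 averaged 7489 CPM in the kidney. Of the 8 smooth muscle markers Tagln and Cnn1 were listed at 0 in every library of both tissues. Egfr itself was 39.5, 46.7 and 54.3 CPM in the WT-SFD aortae, 51.2, 57, 57 and 65.1 in WT-HFD, 26.8, 28 and 35.5 in KO-SFD, and 27.5, 33.4, 39.7 and 40.6 in KO-HFD. On either diet the KO and WT aortae did not overlap, the KO ones being lower, and averaged over the diets Egfr was lower in KO by a log2 fold change of -0.67 (SE 0.109, adjusted p = 0.0132, edgeR). In the kidney, where the tubules are the main source of the receptor, Egfr ran from 36.9 to 60.8 CPM and its mean was 45.9 to 50.4 in WT groups and 43.1 to 53.6 in KO groups. These are whole pieces of tissue, in which fewer cells of a type and less RNA per cell cannot be told apart.

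Positions are on the mouse genome build GRCm38. Fos occupies chr12:85473890-85477273 on the plus strand, Fosb chr7:19302696-19310051 on the minus strand, Jun chr4:95049034-95052222 on the minus strand, Junb chr8:84974484-84978718 on the minus strand and Atf3 chr1:191170296-191218039 on the minus strand. Egr2 occupies chr10:67535475-67542188 and Egr3 chr14:70077203-70082614, both on the plus strand, Ier2 chr8:84661331-84662852 on the minus strand and Dusp1 chr17:26505590-26562128 on the minus strand, and the position of Egr1 is not reported here. On the opposite strand Jun shares its interval with the antisense gene Junos, Junb with Prdx2, Atf3 with Gm24748, and Dusp1 with Ergic1 and the pseudogene Gm8225. On its own strand Dusp1 shares its interval with AC122252.1 and the pseudogene AC122252.4. The strand setting of the counting is not given in the sources used here, so reads of such partners cannot be told apart.

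The promoters of Fos, Egr2 and Dusp1 are shown because they hold, in this order, TGACG without its full palindrome, a CArG box and the full palindrome of the cAMP response element. The windows run from 250 bases before to 50 bases after a RefSeq transcript start (GRCm38.p6), 5′ to 3′ on the gene's strand, and capitals mark matches to TGACG or its reverse complement CGTCA, the core of the cAMP response element, and to the CArG box, the site of SRF. The Fos window is chr12:85473640-85473939 (plus strand), the Egr2 window chr10:67537619-67537918 (plus strand) and the Dusp1 window chr17:26508423-26508722 (minus strand).
Fos: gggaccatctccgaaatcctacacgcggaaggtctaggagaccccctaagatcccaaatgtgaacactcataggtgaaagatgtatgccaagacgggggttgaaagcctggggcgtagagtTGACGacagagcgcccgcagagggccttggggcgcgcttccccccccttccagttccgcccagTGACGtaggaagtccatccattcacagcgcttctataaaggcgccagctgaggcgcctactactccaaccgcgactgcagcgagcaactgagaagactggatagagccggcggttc
Egr2: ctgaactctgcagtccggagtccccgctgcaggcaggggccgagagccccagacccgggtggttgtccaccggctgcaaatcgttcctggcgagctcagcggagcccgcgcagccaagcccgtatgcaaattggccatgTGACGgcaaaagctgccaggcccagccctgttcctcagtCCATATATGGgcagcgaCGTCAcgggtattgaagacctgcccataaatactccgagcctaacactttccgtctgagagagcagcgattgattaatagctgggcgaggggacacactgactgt
Dusp1: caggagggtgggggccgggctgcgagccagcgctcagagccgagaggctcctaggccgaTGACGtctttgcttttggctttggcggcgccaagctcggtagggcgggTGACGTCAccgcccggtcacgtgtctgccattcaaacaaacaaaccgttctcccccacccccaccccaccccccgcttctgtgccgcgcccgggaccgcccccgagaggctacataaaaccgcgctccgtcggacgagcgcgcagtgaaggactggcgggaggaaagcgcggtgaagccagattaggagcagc
RefSeq entries matched 7 of the 10 genes, and Egr1, Egr3 and Ier2 had none in this table. TGACG on either strand was found in the windows of Fos, Fosb, Junb, Egr2, Atf3 and Dusp1, a motif that 20.8% of the 32851 promoters searched also hold. The full palindrome TGACGTCA, which contains both TGACG and CGTCA, was found in Dusp1 among the matched genes, and in 1.79% of all promoters. A CArG box was found in Egr2, in the window shown from 72 to 63 bases before the transcript start, and in 1.63% of all promoters. The serum response element of Fos, its best known site for SRF, lies further upstream, outside the window shown. These are matches of letters, and factor binding was not measured.

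The genes differed widely in abundance. On the scale of CPM per kilobase of exon, the mean level in the aorta was 40 for Dusp1, 27.5 for Jun, 24.9 for Egr1, 19.6 for Fos, 17.9 for Junb, 13.8 for Ier2, 5.31 for Atf3 and 4.1 for Fosb, with Egr3 (0.904) and Egr2 (0.498) at the bottom. The corresponding means in the kidney were 21.8 for Dusp1, 18.3 for Junb, 13.3 for Jun, 11.4 for Ier2 and 2.73 for Egr1. Fos (0.748), Atf3 (0.654), Egr2 (0.124), Fosb (0.0648) and Egr3 (0.0391) followed, the last resting on 0 to 20 counts per library.

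Fos varied widely in the aorta. Its level was 9.96, 16.1 and 81.7 CPM in the WT-SFD mice, 29, 70.5, 77.9 and 103 in WT-HFD, 21.7, 30.9 and 34.3 in KO-SFD, and 22.2, 38.1, 44.8 and 66.1 in KO-HFD. The third WT-SFD mouse (WT-SFD 3) reached the level of the WT-HFD group, so the WT groups overlapped. The order of the group means was WT-HFD (70.1 ± 30.6 CPM, SD, n = 4), KO-HFD (42.8 ± 18.2, n = 4), WT-SFD (35.9 ± 39.8, n = 3) and KO-SFD (29 ± 6.5, n = 3), and the values of all neighbours in that order overlapped. Fosb, the close relative of Fos, showed the same layout with 3.55, 9.95 and 51.4 CPM in WT-SFD and 19.6 to 63.3 in WT-HFD. In the KO mice Fosb was 12.3, 15 and 15.5 CPM on SFD and 19, 20.2, 27.1 and 32.8 on HFD, so that these groups did not overlap.

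Jun, the partner of Fos in AP-1, was 44.5, 55.9 and 116 CPM in WT-SFD, 95.8, 101, 101 and 163 in WT-HFD, 77.7, 83 and 86.9 in KO-SFD, and 56, 65.7, 85.7 and 94 in KO-HFD. Every KO-HFD aorta lay below every WT-HFD aorta. Junb was 20.7, 26.6 and 58.5 CPM in WT-SFD and 27.4, 48.4, 64.2 and 83.1 in WT-HFD, and 20.1 to 48.3 across the KO mice. Atf3, a stress-induced repressor of the ATF/CREB family, was 1.36, 7.59 and 17.2 CPM in WT-SFD, 10.5, 10.9, 18.9 and 44.6 in WT-HFD, 7.37, 8.16 and 8.22 in KO-SFD, and 5.34, 5.99, 6.64 and 7.23 in KO-HFD. The 7 KO aortae therefore spanned 5.34 to 8.22 CPM, a range that the WT aortae exceeded on both sides, and on HFD the genotypes did not overlap.

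**Figure D1:**
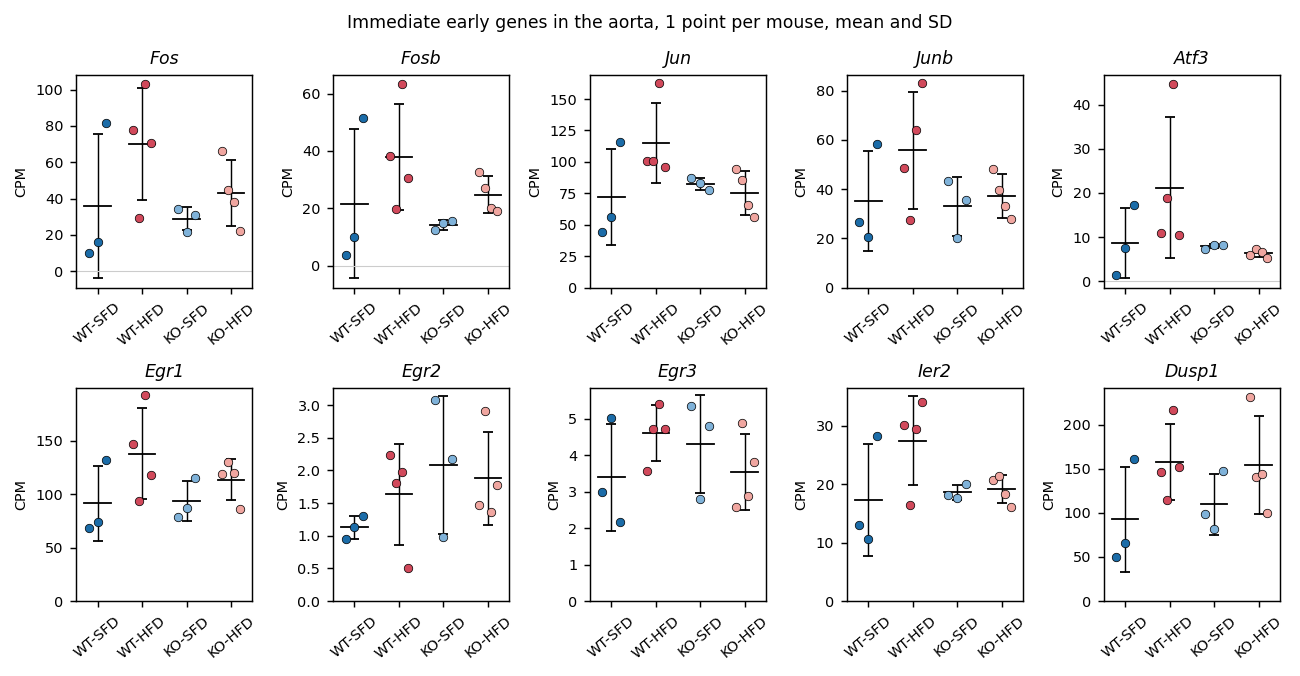
Level of each of the 10 genes in the aorta (CPM, vertical axis) by group, 1 point per mouse, with the group mean and SD. In Fos, Fosb, Jun, Junb and Atf3 the highest WT-SFD mouse, WT-SFD 3, stands among the WT-HFD mice, and the KO groups are less spread than WT-SFD.

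Egr1, the zinc finger factor that is the classical readout of ERK and SRF, was 68.5, 74.3 and 132 CPM in WT-SFD, 94.2, 118, 147 and 193 in WT-HFD, 79, 87.2 and 115 in KO-SFD, and 86, 119, 120 and 130 in KO-HFD. Its group means were 138 ± 42.7 CPM (SD, n = 4) in WT-HFD, 114 ± 19.1 (n = 4) in KO-HFD, 93.7 ± 18.8 (n = 3) in KO-SFD and 91.6 ± 35 (n = 3) in WT-SFD, and all neighbours overlapped. Egr2 stayed between 0.511 and 3.08 CPM and Egr3 between 2.17 and 5.42, with no group apart from the others. Ier2 was 10.6, 13 and 28.2 CPM in WT-SFD and 16.4, 29.4, 30.1 and 34 in WT-HFD, and lay within 16.1 to 21.4 in all 7 KO aortae. Dusp1, the feedback phosphatase, was 50.5, 66.3 and 161 CPM in WT-SFD, 115, 146, 152 and 217 in WT-HFD, 82.3, 98.5 and 148 in KO-SFD, and 99.7, 141, 144 and 232 in KO-HFD. Its 2 lowest mice were mice WT-SFD 1 and WT-SFD 2, which were also the lowest of the 14 in Fos, Fosb, Jun, Egr1 and Ier2.

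How HFD changed these genes in WT aortae was tested with edgeR's quasi-likelihood test over all 14796 genes with Benjamini-Hochberg adjustment. All 10 had a positive log2 fold change, with a median of 0.68 against -0.01 for all genes tested, and 0 of 10 reached an adjusted p under 0.05, where 0% of all genes did. DESeq2 called 0 of them as well. At an unadjusted p under 0.05 there were 4, Jun (0.68, SE 0.282), Egr1 (0.60, SE 0.255), Ier2 (0.68, SE 0.29) and Atf3 (1.30, SE 0.572), where 17.0% of all genes passed. Fos had a log2 fold change of 0.97 with an SE of 0.58. In no member were the WT diet groups apart, which held for 8.96% of all genes.

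1 mouse decided this result. With mouse WT-SFD 3 left out, 8 of the 10 were higher on HFD at an adjusted p under 0.05, all but Egr2 and Egr3, where 12.4% of all genes passed, and the same 8 passed before adjustment, where 25.3% did. Fos then had a log2 fold change of 2.42 (SE 0.473, adjusted p = 0.0032), Fosb 2.46 (SE 0.448, adjusted p = 0.00197), Jun 1.20 (SE 0.233, adjusted p = 0.003), Ier2 1.23 (SE 0.241, adjusted p = 0.00323) and Dusp1 1.43 (SE 0.323, adjusted p = 0.00821), all by edgeR.

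The 2 remaining WT-SFD aortae were also the ones richest in adipocyte transcripts. The mean log2 CPM of 20 adipocyte markers was 7.7 in mouse WT-SFD 1 and 7.31 in mouse WT-SFD 2, against 3.01 in mouse WT-SFD 3 and 3.27 to 4.12 in the WT-HFD mice. In KO it was 6.94, 5.54 and 2.89 on SFD and 2.42 to 3.74 on HFD. The summed level of the list was 8346 and 6505 CPM in mice WT-SFD 1 and WT-SFD 2, 5166 and 1854 in mice KO-SFD 1 and KO-SFD 2, and 588 to 880 in the other 10 aortae. Averaged over genotypes, 17 of the 20 markers were lower on HFD at an adjusted p under 0.05, among them the fatty acid carrier Fabp4 (-3.66, SE 0.642, adjusted p = 0.0168, edgeR) and Adipoq. The most abundant marker was Plin4 (413 CPM), and none of the 20 was at 0. The summed level of the smooth muscle markers was 10610, 13170 and 11460 CPM in mice WT-SFD 1, WT-SFD 2 and KO-SFD 1 and 15760 to 18990 CPM in the others.

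The fit was repeated in the 9 aortae with an adipocyte mean under 4 (1 WT-SFD, 3 WT-HFD, 1 KO-SFD and 4 KO-HFD). The log2 fold change of HFD against SFD in WT was then below 0 for 8 members, Egr2 and Egr3 excepted. It was -0.46 for Fos (SE 0.491), -0.21 for Jun (SE 0.223), -0.13 for Egr1 (SE 0.237) and -0.35 for Atf3 (SE 0.317). Fosb was lowest at -0.80, and Egr2 (0.279) and Egr3 (0.998) were above 0. The limit of 4 also drops mouse WT-HFD 3, which at 4.12 lies just above it and was the highest of its group in 7 members. With a limit of 5, chosen after seeing the data, this mouse is kept (10 aortae). Then 6 members were below 0, among them Fos (-0.22, SE 0.499) and Jun (-0.000877, SE 0.282). Egr1 (0.07, SE 0.288), Atf3 (0.31, SE 0.584), Egr2 (0.371) and Egr3 (1.09) were above it. At either limit the SFD side is 1 WT mouse, WT-SFD 3 itself, so its SEs assume that this lone mouse varies like the mice of the other groups, and it offers no replicate check. With the adipocyte mean as a covariate over all 14 mice the fold change stayed positive for all 10, 0.69 for Fos (SE 0.493) and 0.48 for Jun (SE 0.269).

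**Figure D2:**
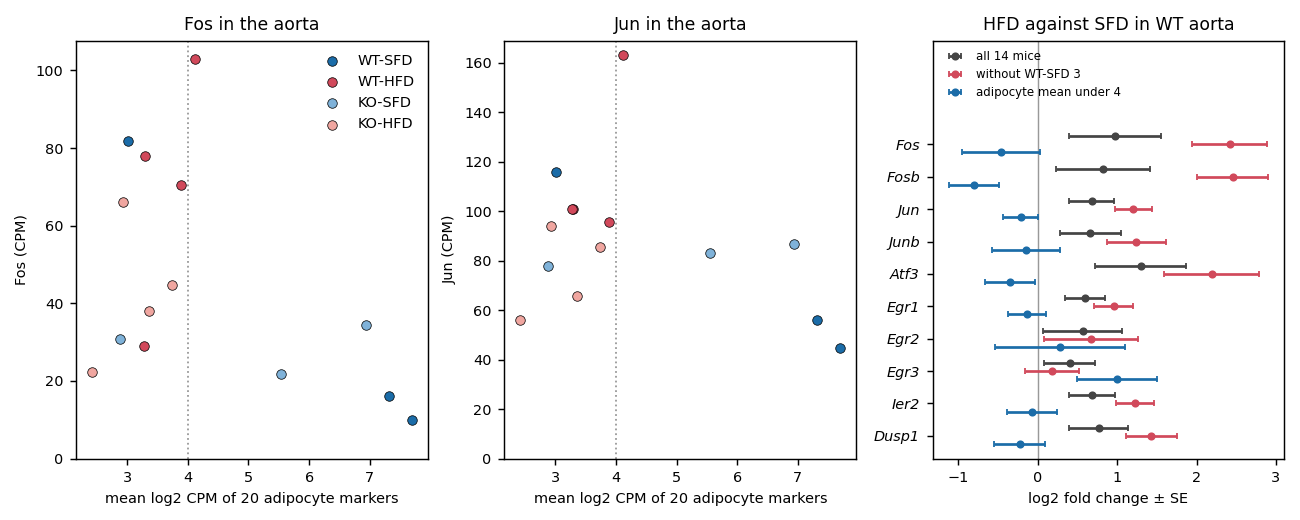
Left and middle, Fos and Jun (CPM) against the mean log2 CPM of 20 adipocyte markers, 1 point per aorta, with the dotted line at 4. Right, log2 fold change with SE of HFD against SFD in WT aortae from all 14 mice, without mouse WT-SFD 3 and from the 9 aortae under 4, where WT-SFD 3 is the only WT-SFD mouse. The 2 WT-SFD aortae above 7 on the horizontal axis have the lowest Fos and Jun, aorta KO-SFD 1 at 6.94 has the highest of its group (34.3 and 86.9 CPM), and the estimates without mouse WT-SFD 3 and from the 9 aortae lie on opposite sides of 0 for all but Egr2 and Egr3.

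In KO aortae HFD gave no call either, 0 of 10 at an adjusted p under 0.05 (0% of all genes) and 0 of 10 at an unadjusted p under 0.05 (7.85% of all genes), with edgeR. The median log2 fold change was 0.11, 6 members being above 0 and 4 below. Fosb was higher in every HFD than in every SFD mouse (0.79, SE 0.601) and Atf3 lower (-0.32, SE 0.584), 2 of 10, and groups were apart for 7.04% of all genes. The diet effect itself was then compared between the genotypes. The difference of KO from WT was below 0 for all 10 members, from -0.03 for Fosb (SE 0.837) to -1.62 for Atf3 (SE 0.813), and 0 of 10 passed at either limit (0% of all genes after adjustment and 4.37% before). This contrast shares the WT-SFD mice with the WT diet contrast and moved with mouse WT-SFD 3 as well. Without that mouse all 10 differences were again below 0, 0 of 10 passed after adjustment (0% of all genes) and 8 passed before it, all but Egr2 and Egr3, where 10.2% of all genes did. The difference was then -1.85 for Fos (SE 0.577, adjusted p = 0.274), -1.66 for Fosb (SE 0.55, adjusted p = 0.302), -1.33 for Jun (SE 0.299, adjusted p = 0.235) and -2.51 for Atf3 (SE 0.764, adjusted p = 0.269), by edgeR. In the 9 aortae with an adipocyte mean under 4 the difference was above 0 for 7 members, among them Fos (0.93, SE 0.708) and Fosb (1.48, SE 0.472). It was -0.02 for Atf3 (SE 0.447) and -1.43 for Egr3. In the 10 aortae that include WT-HFD 3 it was above 0 for 4 members, with 0.69 for Fos (SE 0.723) and 1.11 for Fosb (SE 0.619). There Atf3 was at -0.67 (SE 0.846) and Egr3 at -1.52. In these subsets each SFD group is 1 mouse. After adjustment no member's diet effect was found to differ between the genotypes with all mice or without mouse WT-SFD 3. The size of the estimate depended on which aortae were kept. Its sign turned for 7 members with the limit of 4 and for 4 with the limit of 5, and stayed below 0 for Egr2, Egr3 and Atf3 at both.

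With the genotypes averaged, all 10 members had a positive diet estimate, 0 passed after adjustment where 3.95% of all genes did, and 2 passed before it, Egr1 (0.44, SE 0.18) and Dusp1 (0.63, SE 0.258), where 18.8% did. Without mouse WT-SFD 3, 6 were called higher on HFD, Fos, Fosb, Jun, Egr1, Ier2 and Dusp1, where 12.6% of all genes were called, and 8 passed before adjustment, where 25.7% did.

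KO was compared with WT on each diet. On SFD, 0 of 10 members passed before or after adjustment, where 6.54% and 0.0811% of all genes passed, no member had separate groups (8.57% of all genes), and the log2 fold changes ran from -0.58 for Fosb (SE 0.64) to 0.89 for Egr2 (SE 0.518), with -0.30 for Fos (SE 0.614). Without mouse WT-SFD 3 all 10 estimates were above 0, Fosb at 1.05 (SE 0.454, adjusted p = 0.271, edgeR) and Fos at 1.14 (SE 0.469, adjusted p = 0.245). Then 0 of 10 passed after adjustment, where 0.398% of all genes did, and 5 before it, Fos, Fosb, Jun, Ier2 and Dusp1, where 15.9% did. The summed level of the leucocyte markers was 94.1 to 102 CPM in the WT-SFD aortae, 149 to 214 in KO-SFD, 92.8 to 165 in WT-HFD and 82.9 to 211 in KO-HFD. All 6 tested of the 10 markers had a positive estimate for KO on SFD (median 0.97), 4 passed before and 0 after adjustment, and 4 had separate groups, whereas all 6 were below 0 for HFD in KO (median -0.55), 1 of them before adjustment. The most abundant was Lyz2 (54.7 CPM). Of the 10 markers 9 were among the genes counted and 8 had a count, Adgre1 and Cd3e being those without. The part of leucocytes in the values of the immediate early genes was not tested. In the KO to WT comparison on HFD, 9 of 10 estimates were negative with a median of -0.55, the exceptions being Egr2 and, with library totals in place of TMM factors, also Dusp1. Again 0 of 10 passed after adjustment (0.0811% of all genes). Before it 2 did, Atf3 (-1.75, SE 0.526) and Jun (-0.62, SE 0.258), where 5.35% of all genes did. These were also the 2 of 10 whose genotypes were apart on HFD, where 4.18% of all genes were. For Atf3 the adjusted p was 0.637, and the estimate was -1.09 (SE 0.22, adjusted p = 0.131) in the fit of the 9 aortae with an adipocyte mean under 4 and -1.09 without mouse WT-HFD 3, whose 44.6 CPM was the highest value. Both leave out that mouse. A limit of 5 keeps it and all other HFD mice, so the estimate there, -1.75 (SE 0.383), could not change. Only the spread shared by the groups was estimated anew, so this was no further check. Averaged over diets, 0 members passed after adjustment (0.196% of all genes) and 1 before it, Atf3 (-0.94, SE 0.407), where 7.17% of all genes did. Without mouse WT-SFD 3 this became 0 after adjustment (0.261% of all genes) and 1 before it, Dusp1 (0.44, SE 0.203), where 13.4% did, and Atf3 was at -0.49 (SE 0.378).

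The genotype comparisons were also made in the aortae with an adipocyte mean under 4 or under 5. For KO on SFD, where 1 mouse of each genotype is left, 8 of 10 members were below 0 at both limits. With the limit of 4 Fosb was at -1.73 (SE 0.42, adjusted p = 0.72, edgeR), Fos at -1.40 (SE 0.63) and Atf3 at -1.07 (SE 0.402), and these 3 passed before adjustment (3.86% of all genes). With the limit of 5 it was 1, Fosb (3.66% of all genes), and after adjustment 0 passed at either limit (0.0127% and 0.0126% of all genes). For KO on HFD 3 members passed before adjustment with the limit of 4, Jun, Ier2 and Atf3 (6.65% of all genes), and 6 with the limit of 5, which keeps all 8 HFD mice, namely Fos, Fosb, Jun, Junb, Ier2 and Atf3 (8.06% of all genes). All of these were lower in KO, and 0 passed after adjustment (0.114% and 0.183% of all genes). Averaged over diets 5 passed before adjustment with the limit of 4, Fos (-0.93, SE 0.357), Fosb (-0.99, SE 0.237), Jun, Ier2 and Atf3 (-1.08, SE 0.23), where 5.40% of all genes did, and 6 with the limit of 5, where 5.47% did, all lower in KO. After adjustment 0 passed (0.114% and 0.0946% of all genes). For Fos and Fosb the estimates on SFD and averaged over diets were thus below 0 here and above 0 without mouse WT-SFD 3. For KO on HFD the limit of 5 compares the same 8 mice as the fit of all aortae, so the estimates hardly moved. Fos was at -0.71 with all mice and -0.712 with the limit of 5, and Junb at -0.582 and -0.583. Their SEs fell from 0.523 to 0.323 and from 0.35 to 0.253, as the shared spread was estimated anew without the dropped SFD aortae. The larger number of members passing there is therefore no further check of a genotype effect on HFD.

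**Figure D3:**
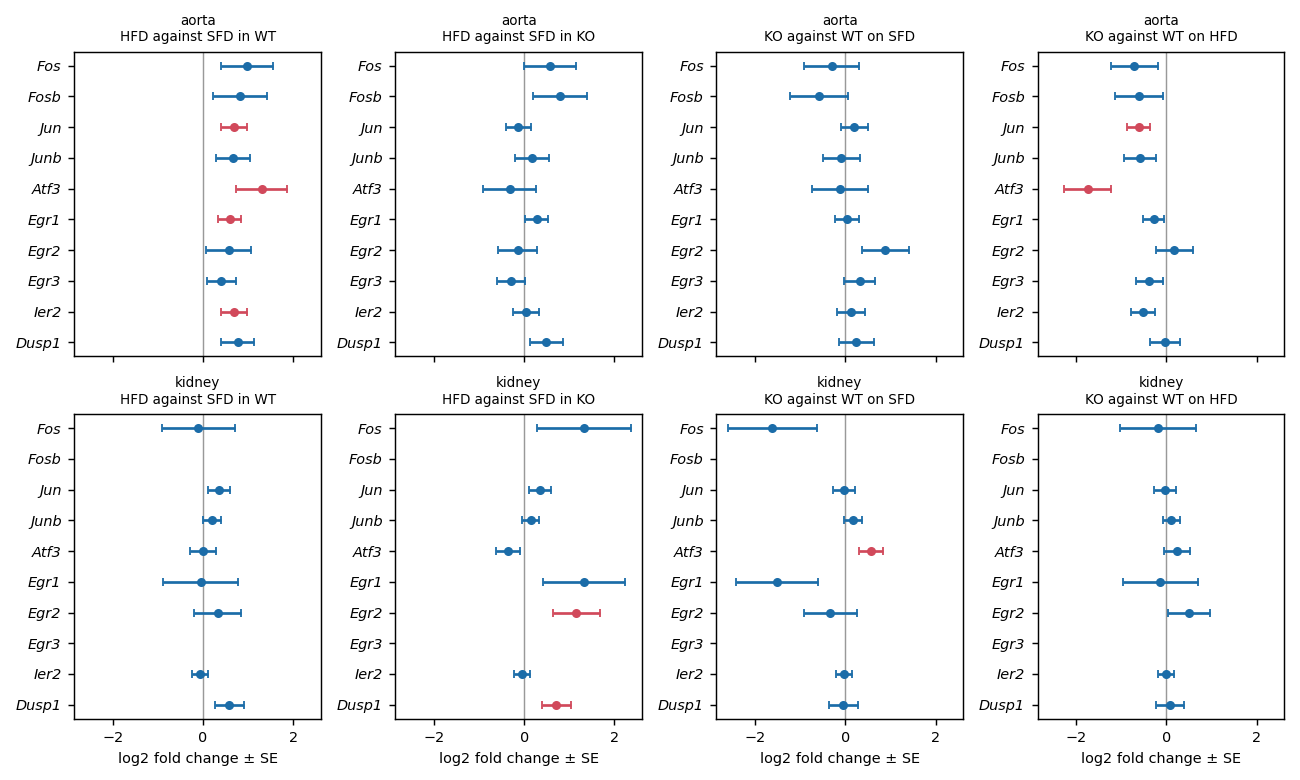
Log2 fold change with SE of each gene in the 4 comparisons of 2 groups in the aorta (top) and kidney (bottom), from edgeR's quasi-likelihood fit; red marks an unadjusted p under 0.05. No gene passed after adjustment over all genes, and Fosb and Egr3 have no estimate in the kidney.

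In the kidney Fos and Egr1 were low and even in most mice, and 3 mice stood apart. Junb, Ier2, Jun and Dusp1 were more abundant there, as their levels per kilobase show. Fos was 0.485 to 1.29 CPM in 13 of the 16 kidneys and 6.77 in mouse WT-SFD 4, 6.08 in mouse WT-HFD 3 and 4.68 in mouse KO-HFD 4. Egr1 was 4.15 to 7.32 CPM in the same 13 kidneys and 45.6, 43.7 and 34 in the same 3 mice. Each stood 4.54 to 7.86 times above the next mouse of its group in these genes. No KO-SFD kidney was of this kind. None of the 3 mice has an aorta library here.

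The rise in these 3 kidneys covered a part of the set. Jun was 54.9 CPM in mouse WT-SFD 4 and 78.4 in mouse WT-HFD 3, the highest of their groups, and 47 in mouse KO-HFD 4, where mouse KO-HFD 3 was higher at 59.6. Dusp1 was 170 CPM in mouse WT-HFD 3 against 42.8 to 75.3 in the rest of its group, and 67.8 in mouse WT-SFD 4 and 95.2 in mouse KO-HFD 4. Junb was 46.3, 61.4 and 52.9 CPM and Ier2 22.5, 23.2 and 19 in mice WT-SFD 4, WT-HFD 3 and KO-HFD 4, each the highest of its group. Atf3 was lowest of its group in mouse WT-SFD 4 (0.762 CPM on 17 counts, against 1.25 to 1.51 CPM in the rest), whereas mouse WT-HFD 3 (0.966 CPM) was level with the next mouse (0.972 CPM). Fosb, which rested on 3 to 17 counts per library, was highest of its group in all 3, at 0.448, 0.739 and 0.855 CPM.

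**Figure D4:**
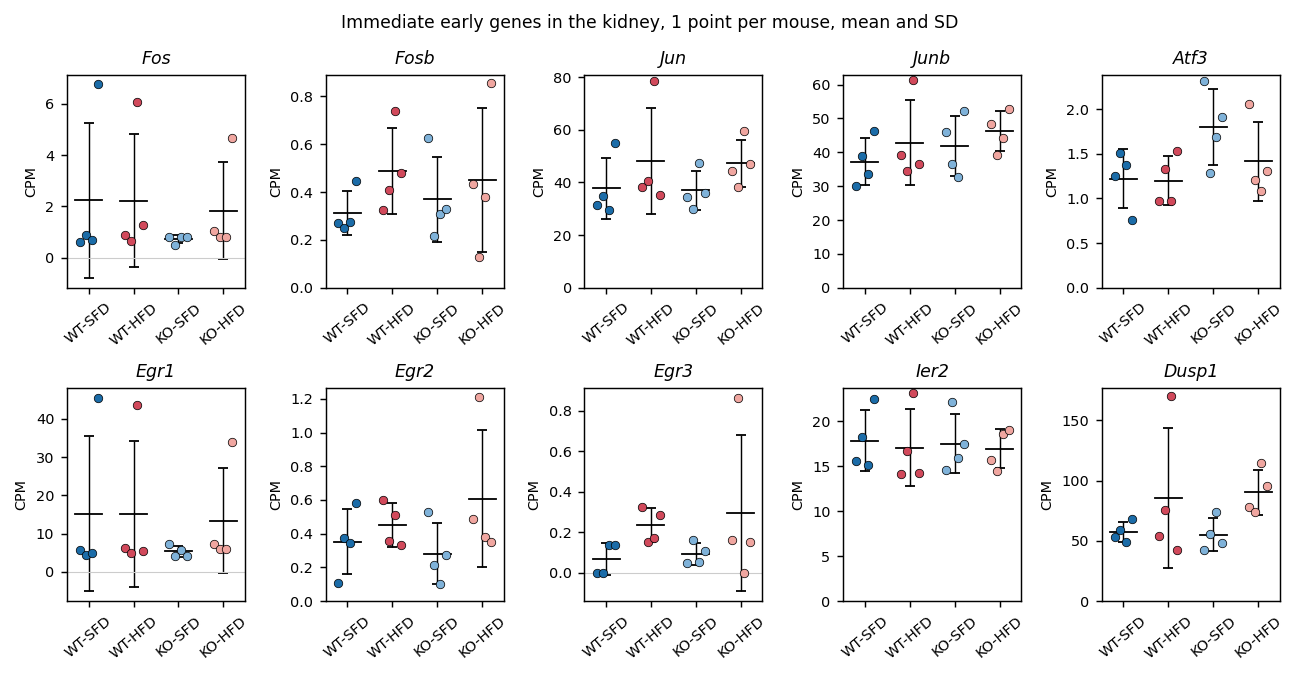
Level of each of the 10 genes in the kidney (CPM, vertical axis) by group, 1 point per mouse, with the group mean and SD. In Fos and Egr1 1 mouse in each of 3 groups lies at 4.68 to 6.77 and at 34 to 45.6 CPM, far above the rest.

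Of the 8 members tested in the kidney, 7 were highest of their group in mouse WT-SFD 4, 6 in mouse WT-HFD 3 and 4 in mouse KO-HFD 4, and these mice were highest in 23.6%, 23% and 19.3% of all 15034 genes. Since the 3 mice were picked by Fos and Egr1, these genes count for nothing here, and of the 6 others 5, 4 and 2 were highest in them, in the same order. For KO-HFD 4 the 2 were Junb and Ier2. Among 36 tested genes of a list of 40 other immediate early genes, the same mice were highest in 8, 9 and 5, so most of that list did not move with Fos and Egr1. The one that did most plainly was Cyr61, a matricellular SRF target named after its values were seen, with 71.2, 51.1 and 32.2 CPM in mice WT-SFD 4, WT-HFD 3 and KO-HFD 4 against 11.8 to 17.8 in the rest of their groups. Cyr61 was also 42.7 CPM in mouse KO-SFD 3, above KO-HFD 4, where Fos and Egr1 were at 0.818 and 5.73 CPM. The lists of other cell types and of heat shock genes were compared with the other 13 kidneys on the summed scale and on the scale of mean log2 CPM. On the summed scale 24 of 27 values of the 3 kidneys lay within the range of the others, and the exceptions were all in mouse WT-HFD 3, with fibroblast markers at 72.9 CPM (74.6 to 137 in the others), skeletal muscle markers at 1.02 CPM (1.2 to 2.64) and heat shock genes at 1517 CPM, the highest of the 16. On the scale of mean log2 CPM 25 of 27 lay within it, the exceptions being fibroblast markers in mouse WT-HFD 3 (2.94, against 3.12 to 3.97) and adipocyte markers in mouse KO-HFD 4 (2.26, against 2.64 to 5.53). The leading genes of the adipocyte list in the kidney, Pck1, Lpl and Cd36, are also made by kidney cells. Why these mice stood apart was not tested, and the labels give no day or order of tissue collection.

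These kidneys carry the kidney comparisons of Fos and Egr1. HFD against SFD in WT gave 0 of 8 members at an adjusted p under 0.05 (0.964% of all genes), 0 before adjustment (8.05%) and 0 with separate groups (5.01%), with edgeR. Fos had a log2 fold change of -0.10 (SE 0.802) and Egr1 -0.06 (SE 0.825), and with mice WT-SFD 4, WT-HFD 3 and KO-HFD 4 left out 0.41 (SE 0.326) and 0.12 (SE 0.221). KO against WT on SFD was -1.62 (SE 0.986) for Fos and -1.52 (SE 0.904) for Egr1 and became 0.06 (SE 0.325) and 0.08 (SE 0.208) without them. In that comparison 0 of 8 passed after adjustment (0.0133% of all genes), 1 before it, Atf3 (0.58, SE 0.266), where 8.69% did, and 0 had separate groups (3.98%). KO against WT on HFD gave 0 of 8 after adjustment (0% of all genes), 0 before (1.75%) and 0 with separate groups (1.32%).

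HFD in KO kidneys gave 0 of 8 after adjustment, where 2.39% of all genes passed, and 2 before it, Egr2 (1.16, SE 0.527) and Dusp1 (0.71, SE 0.32), where 16.1% did. Egr2 rested on 2 to 28 counts per library, and 1.21 CPM in mouse KO-HFD 2 was its highest value. Dusp1 was 42.8, 48.4, 55.6 and 74.1 CPM on SFD and 73.9, 78.1, 95.2 and 115 on HFD, a near separation. Fos was the 1 member of 8 with separate groups, 0.485 to 0.82 CPM on SFD and 0.822 to 4.68 on HFD, where 8.87% of all genes had them, and its lowest HFD and highest SFD mice were nearly equal. Averaged over genotypes, Dusp1 was the 1 of 8 to pass before adjustment (0.64, SE 0.226, adjusted p = 0.124, edgeR), where 18.2% of all genes did and 4.62% after it. Its estimate was 0.39 (SE 0.16, adjusted p = 0.271) with the 3 mice left out. When the diet effect in KO was set against that in WT, 0 of 8 passed at either limit (0% of all genes after and 3.35% before adjustment), and the genotype effect averaged over diets gave 0 of 8 at either limit (0.0133% and 5.93%). DESeq2 called 0 members in every kidney comparison.

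The spread between mice differed among these genes. The SD of log2 CPM around the group means in the aorta was 0.959 for Fosb, 0.953 for Atf3 and 0.913 for Fos, each larger than in over 95% of the genes tested, and the median was 0.577 for the 10 members and 0.296 for all genes. Egr1 (0.385), Egr3 (0.418), Jun (0.422) and Ier2 (0.431) exceeded only 63.9% to 69.4% of the genes in the aorta. Dusp1, Junb and Egr2 exceeded 81.2% to 85.3%. In the kidney the SD was 1.26 for Egr1 and 1.19 for Fos, larger than in 99% and 98.8% of the genes. The median there was 0.441 for the 8 members and 0.243 for all genes. Ier2 (0.265) and Junb (0.294) were near the median gene in the kidney.

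Most pairs of members deviated together over all mice of a tissue. Over the 14 aortae the median Pearson r of the deviations from the group means was 0.634 over the 45 pairs of members, of which 37 were above 0. The exceptions were pairs with Egr2 or Egr3, and the lowest was Egr3 with Ier2 (-0.405), whereas Fos with Fosb reached 0.918. In the 9 aortae with an adipocyte mean under 4 each SFD group is 1 mouse, which deviates by 0 from its own mean. Resting on the 3 WT-HFD and 4 KO-HFD mice only, the median there was 0.291. Over the 16 kidneys it was 0.486 over 28 pairs, of which 19 were above 0, with 0.968 for Fos and Egr1. Atf3 deviated there against every other tested member, from -0.12 with Egr2 to -0.607 with Ier2. Over the 13 kidneys without mice WT-SFD 4, WT-HFD 3 and KO-HFD 4 the median was 0.0101. These values describe libraries whose members share depth and tissue composition.

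**Figure D5:**
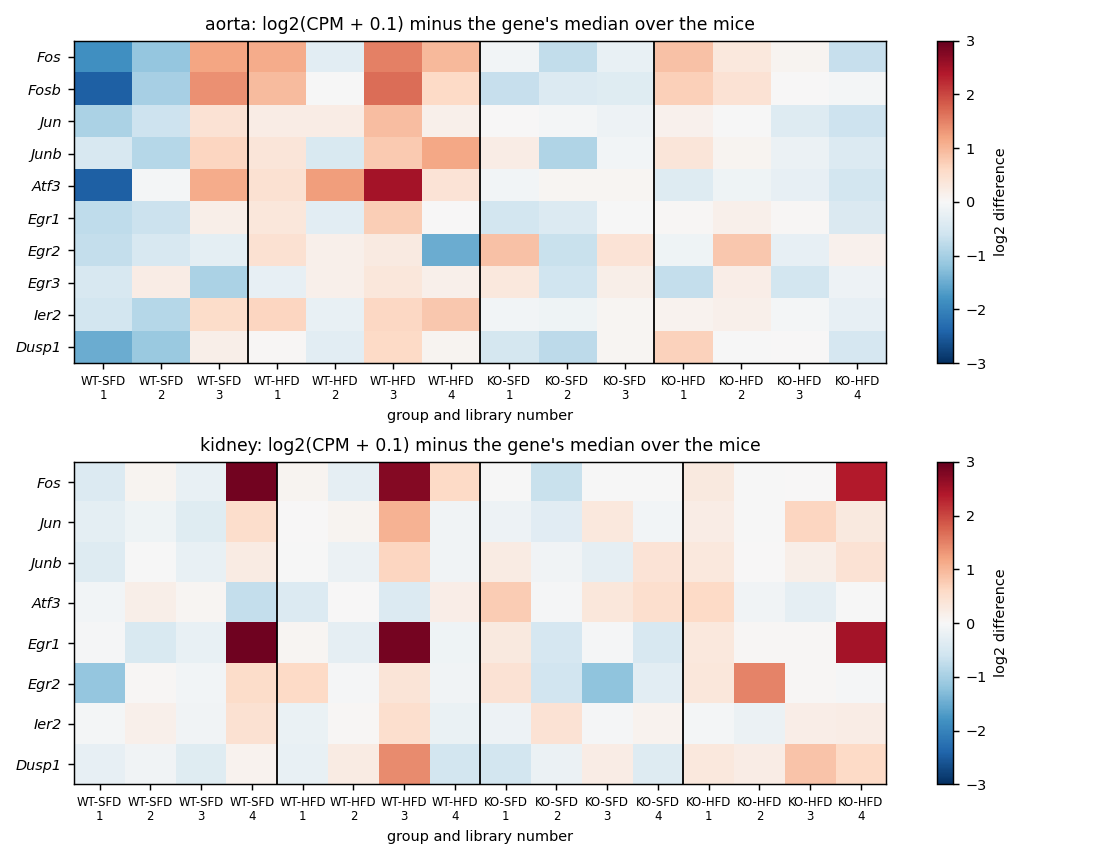
Deviation of each gene from its median over the mice of a tissue (log2 of CPM + 0.1, colour scale from -3 to 3) in each mouse, grouped by genotype and diet, for 10 genes (aorta) and 8 genes (kidney). Mice WT-SFD 1 and WT-SFD 2 are blue for most genes in the aorta, and mice WT-SFD 4, WT-HFD 3 and KO-HFD 4 are red for Fos and Egr1 in the kidney.

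The genes most like the set were found by the r of their deviations with the mean standardised deviation of the members. In the 14 aortae these were Ccp110 (0.948), Gm14323 (0.945), Spns1 (0.921), Nr4a1 (0.915), Mkl2 (0.901), Zfp36 (0.892), Fam110b (0.883) and Atad2 (0.882). Nr4a1, an orphan nuclear receptor, and Zfp36, which speeds the decay of AU-rich mRNAs, are themselves immediate early genes, and Mkl2 encodes the SRF cofactor MRTF-B. Nr4a1 ranged from 15.4 to 116 CPM, Zfp36 from 36.9 to 84.2 and Mkl2 from 74.8 to 108. In the 16 kidneys they were Zfp36 (0.887), Slc11a2 (0.815), Capn11 (0.798), Mast2 (0.79), Rffl (0.787), Lpcat3 (0.782), Sema6a (0.78) and Ext1 (0.768). Zfp36 was the gene common to both tissues. Over the 13 kidneys without the 3 mice the r was 0.233 for Zfp36, -0.0798 for Capn11, 0.188 for Ext1 and 0.307 for Rffl, and 0.691 to 0.821 for the other 4. Over the 9 aortae with an adipocyte mean under 4 it was 0.402 for Fam110b, 0.448 for Atad2 and 0.646 to 0.944 for the other 6. These values too rest on the 3 WT-HFD and 4 KO-HFD mice, because a lone SFD mouse does not deviate from its own mean.

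Other genes of the pathway were read from the lists. Of 38 tested genes among 40 other immediate early genes, 0 were called in any aorta comparison, and for HFD in WT 28 were above 0 and 10 below with a median log2 fold change of 0.17. Before adjustment 8 of these 38 passed for HFD in WT, against the 17.0% of all genes given above. Without mouse WT-SFD 3, 11 of the 38 were called for HFD in WT, 9 higher and 2 lower, beside the 12.4% of all genes, and Nr4a1, Zfp36 and Cyr61 were among the 11. In the kidney Plk2, a polo-like kinase, fell on HFD in KO (-0.65, SE 0.149, adjusted p = 0.0269) and averaged over genotypes (-0.42, SE 0.105, adjusted p = 0.0303), by edgeR, the 1 of 36 called, a share near the 2.39% and 4.62% of all genes. Csrnp1 had no count in any library. Among 20 regulators, such as SRF, its cofactors and the MAP kinases, Elk1, Map2k1 and Rps6ka3 had no count in any library. The route was therefore not read in full. Of the 20, 17 were tested in the aorta with 0 called and 16 in the kidney with 1. This was Nab2, a corepressor of EGR1, lower on HFD averaged over genotypes (-0.31, SE 0.0711, adjusted p = 0.0168, edgeR). The 1 of 16 is a share near the 4.62% of all genes called in that comparison. Of 14 bZIP partners 12 were tested in the aorta and 14 in the kidney, with 0 called with all mice, while Jdp2 and Jund were higher for HFD in WT aortae without mouse WT-SFD 3, 2 of 12 beside the 12.4% of all genes.

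The relatives of Dusp1 held some calls as well. Of 9 other MAP kinase phosphatases 7 were tested in the aorta and 8 in the kidney, and Dusp7 had no count in any library. Averaged over genotypes 1 of 7 was called in the aorta (3.95% of all genes) and 2 of 8 in the kidney (4.62% of all genes), and 1 of 8 for HFD in KO kidneys (2.39% of all genes). For HFD in WT aortae 0 of 7 were called with all mice, and without mouse WT-SFD 3 4 of 7, Dusp8, Dusp14, Dusp16 and Dusp4, 3 higher and 1 lower (12.4% of all genes). In the aorta Dusp4, a nuclear phosphatase of ERK, was lower on HFD averaged over genotypes (-2.23, SE 0.436, adjusted p = 0.0168, edgeR), the direction of the adipocyte markers. In the kidney Dusp6, a cytoplasmic phosphatase of ERK that ERK signalling induces, was higher on HFD in KO (0.99, SE 0.151, adjusted p = 0.00132) and averaged over genotypes (0.76, SE 0.106, adjusted p = 0.000266), while Dusp14 was lower averaged over genotypes (-0.53, SE 0.146, adjusted p = 0.0477). Of 13 heat shock genes, which mark stress during tissue handling as well as in life, 12 were tested in each tissue and 0 were called with all mice, against 4 for HFD in WT aortae without mouse WT-SFD 3, 2 higher and 2 lower, where 12.4% of all genes were called. Hspa8 had no count in any library and was not tested. The mean log2 CPM of the 12 was 5.12 to 5.76 in the aorta, with 5.41 in mouse WT-SFD 1, 5.42 in mouse WT-SFD 2 and 5.62 in mouse WT-SFD 3. In the kidney it was 5.97 in mouse WT-SFD 4, 6.14 in mouse WT-HFD 3 and 5.99 in mouse KO-HFD 4, within the 5.94 to 6.49 of the other 13. Among the markers of further cell types (endothelium, leucocytes, blood, fibroblasts, skeletal muscle and kidney tubule), 0 were called in any aorta comparison with all mice. Without mouse WT-SFD 3 the endothelial sialomucin Emcn was lower, and the erythrocyte anion exchanger Slc4a1 and the collagen gene Col1a1 higher, for HFD in WT. These were 1 of 6 endothelial, 1 of 1 blood and 1 of 6 fibroblast markers tested, where 12.4% of all genes were called. Of the leucocyte, skeletal muscle and kidney tubule markers 0 were called. In the kidney the tubule transporters Slc5a2 (1.37, SE 0.146, adjusted p = 1.87e-05) and Slc12a3 (0.40, SE 0.101, adjusted p = 0.031) were higher on HFD averaged over genotypes, 2 of 10 called where 4.62% of all genes were. Of the 10, 6 estimates were above 0 and 4 below, and Umod (-0.41, SE 0.128), Slc12a1 (-0.49, SE 0.21) and Aqp2 (-0.55, SE 0.246) passed on the lower side before adjustment only. Slc12a1 was named after its value was seen.

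3 mice gave both an aorta and a kidney. The mouse with the lowest Fos of the 14 aortae (WT-SFD 1, 9.96 CPM) had 0.596 CPM in the kidney, the lowest of its group. Aorta KO-SFD 1, with 34.3 CPM the highest of its group, came from the mouse of kidney KO-SFD 3, at 0.818 CPM, and aorta KO-HFD 3 (38.1 CPM) from the mouse of kidney KO-HFD 2 (0.822 CPM). With 3 mice no relation between the tissues can be tested.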

How the data were processed

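The authors deposited raw counts of reads per gene, 1 column per mouse, in a table of 14 aortae and a table of 16 kidneys. According to the labels and the study's methods, adapters were trimmed (aorta with cutadapt, kidney by the sequencing provider), reads were aligned to mm10 (GRCm38) with TopHat and counted with featureCounts. The strand setting and the treatment of multi-mapping reads are not given in the sources used here. All deposited columns were used. The study states 4 mice in each aorta group, of which 3 WT-SFD and 3 KO-SFD libraries were analysed here.

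Each library is 1 mouse, grouped by the genotype and diet of its label. No pair of libraries was a copy, the smallest chi-square per gene being 6.17 over 91 pairs of aortae and 7.46 over 120 pairs of kidneys. Counting 41128 genes per table, filterByExpr within groups kept 14796 aorta genes and 15034 kidney genes. For each tissue 1 model over all 4 groups was fitted with edgeR 4.0.16 (TMM factors, glmQLFit and glmQLFTest) in R 4.3.3, with Benjamini-Hochberg adjustment of p over all genes tested and calls at an adjusted p under 0.05. An SE is the estimate divided by the root of its F statistic. The fit was tested on simulated data, and the outcome is not given here. log2 CPM used a prior count of 2. DESeq2 1.42.0 and other settings served as alternatives. Positions and exon lengths came from GENCODE vM21 and promoters from RefSeq. The 10 genes and all lists, including the adipocyte limit of 4, were chosen with earlier results of these data known. Genes named are the 10, Egfr, listed genes that were called, among the most abundant or without a count, and per tissue the 8 genes most like the set. Others are said to be chosen after their values were seen.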

Additional observations from a re-analysis of the deposited data

Results flagged for a closer look

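In each group of 4 mice the highest and the lowest value of each of the 10 genes was set against the spread of the others by Dixon's criterion at the 95% level. For independent, normally distributed values the criterion marks about 1 in 20 groups. The values here were CPM of genes that deviated together, and the share marked among all genes was not computed. The 11 of 60 marked, 10 for a high mouse and 1 for a low mouse, are therefore a list of extreme values and no measure of an excess. In the aorta this was Jun in mouse WT-HFD 3 (163 CPM). In the kidney it was Fos at 6.77, 6.08 and 4.68 CPM and Egr1 at 45.6, 43.7 and 34 CPM, in each case in mice WT-SFD 4, WT-HFD 3 and KO-HFD 4. Fosb in mouse WT-SFD 4 (0.448 CPM) and Jun in mouse WT-HFD 3 (78.4 CPM) were marked in the same mice. Egr2 in mouse KO-HFD 2 (1.21 CPM) was a further high value, and Fos in mouse KO-SFD 2 (0.485 CPM) was the low one, where the other 3 mice lay between 0.818 and 0.82 CPM. The groups of 3 aortae, WT-SFD among them, were not examined this way.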

How the results depend on the processing

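No member was called in any comparison under any alternative that kept all mice, namely DESeq2, the older quasi-likelihood test, RLE factors, library totals, no filter, protein-coding genes, the compared groups alone, the adipocyte mean as covariate and an adjusted p under 0.001. Leaving out the WT-SFD aorta of mouse WT-SFD 3 gave 8 calls for HFD in WT and 6 averaged over genotypes (0 to 8 and 0 to 6 over all single mice left out). Library totals moved the median aorta gene by 0.11 (HFD in WT), -0.11 (HFD in KO) and 0.29 (KO on SFD), on the log2 scale.

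Keeping the aortae with an adipocyte mean under 4, which also drops mouse WT-HFD 3 (4.12), turned the sign of 8 members for HFD in WT, 7 averaged over genotypes, 7 for the diet effect in KO set against WT and 4 for KO on SFD, with values for HFD in WT of Fos (-0.46), Jun (-0.21), Egr1 (-0.13), Ier2 (-0.0701), Atf3 (-0.35), Fosb (-0.80), Junb (-0.14) and Dusp1 (-0.23), averaged over genotypes of, among others, Egr1 (-0.0725) and Dusp1 (-0.0857), and for the diet effect in KO set against WT of, among others, Fos (0.93), Fosb (1.48) and Jun (0.17). A limit of 5, chosen after seeing the data, keeps that mouse and turned 6, 3, 4 and 4, with values for HFD in WT of Fos (-0.22), Jun (-0.000877), Ier2 (-0.0355), Fosb (-0.44), Junb (-0.0684) and Dusp1 (-0.03), and for the diet effect in KO set against WT of, among others, Fos (0.69) and Fosb (1.11). Single aortae left out gave for KO on SFD -0.74 to 1.14 for Fos and -1.08 to 1.05 for Fosb, the upper ends without mouse WT-SFD 3, and for the diet effect in KO set against WT -1.85 to 0.0326 for Fos and -1.66 to 0.47 for Fosb, the lower ends without that mouse. Single kidneys left out gave for HFD in WT -1.26 to 1.57 for Fos and -1.48 to 1.54 for Egr1, for KO on SFD -1.99 to 0.0561 for Fos and -1.83 to 0.0835 for Egr1, and for KO on HFD -1.25 to 0.97 for Fos and -1.19 to 1.29 for Egr1. Without mice WT-SFD 4, WT-HFD 3 and KO-HFD 4, an alternative chosen after seeing the data, the values were 0.41 and 0.12 (HFD in WT, Fos and Egr1), 0.0557 and 0.0834 (KO on SFD), and 0.23 for Egr1 (KO on HFD). The cause was not tested. No paired analysis was possible because the groups of a tissue share no mouse and the replicate numbers follow the order of deposit. Egr2, Egr3 and, in the kidney, Fos, Fosb and Atf3 rest on few counts in many libraries, so small differences in them may have been missed. The part of depth in this was not tested.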
